A study of Mus musculus with 6 samples.

Results

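The erythroid transcripts examined here are a list of 34 genes that red blood cells and their precursors express: globins, enzymes of heme synthesis, membrane and membrane skeleton proteins, and the regulators that drive the lineage. They were followed in RNA sequencing of regulatory T (Treg) cells sorted as CD4+GFP+ from the liver (n = 3 libraries) and the spleen (n = 3 libraries) of Foxp3GFP knock-in mice aged 12 days. Both groups carry the knock-in, in which green fluorescent protein reports Foxp3, the defining transcription factor of Treg cells, and the labels name no other allele or treatment. Genes were taken by symbol from a table of 23366 genes, which held 33 of the 34. Spnb1 was the symbol not found, and the same gene, erythroid beta-spectrin, stood in the table as Sptb, which is described beside the others and not counted with them. The labels do not say whether libraries came from separate animals or from pools. Every p-value given rests on the spread between these libraries, which may be partly technical. The libraries of a tissue differed in the sex-linked transcripts Xist and Ddx3y, described further on, so they did not all hold the same animals.

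Red cells arise from progenitors that switch on Gata1, Tal1 and Klf1, load iron, make heme, fill with globin and build a spectrin-based membrane skeleton before they lose the nucleus. In young mice the site of red cell production moves from the liver, where it dominates before birth, to bone marrow and spleen, and the mouse spleen goes on making red cells after birth. T cells do not make hemoglobin, but they use several of the listed genes, such as those for the shared steps of heme synthesis. In RNA from a bulk sort, fewer cells of a type and less RNA per cell cannot be told apart.

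Most erythroid transcripts were lower in liver Treg libraries than in spleen Treg libraries. Of the 33 genes found, 21 were lower in liver, 0 were higher, 7 did not pass the test and 5 were not tested, by edgeR's quasi-likelihood test over 11716 genes with adjusted p under 0.05. Over all genes tested, 6.9% were called lower in liver and 9.28% higher, or 808 and 1087 genes; with upper-quartile scaling that balance turned, at 1014 lower and 954 higher. The 3 liver libraries lay below the 3 spleen libraries for 23 of the 33 genes, against 15.2% of all genes tested. The median log2 fold change, liver minus spleen, of the 28 tested genes was -3.67, against -0.01 for all genes tested. Trim10, the tested gene at 0 in liver, lies below this median at its bound too, so the median is the same with it set there. Of these 28 genes, 15 passed the filter on low counts only through spleen, so that they had to differ, and the counts and the median over tested genes carry that choice. The 5 genes found but not tested were Hba-a1, Hba-a2, Tspo2, Rhag and Trim58. Of the 13 that passed in liver too, 6 were lower in liver and 0 higher. In the same libraries 8 of 13 macrophage markers, 10 of 12 granulocyte markers and 3 of 8 B cell markers were also lower in liver, and their part in the result was not tested. These 8 macrophage markers and the granulocyte marker Ctsg also passed the filter only through spleen.

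The tested genes were summed in 3 groups, set by the low-count filter and by the call. The 15 that passed only through spleen summed to 6.13, 3.85 and 6.85 CPM, counts scaled to a common library total, in liver 1, liver 2 and liver 3, against 244, 217 and 181 CPM in spleen 1, spleen 2 and spleen 3. They were Alas2, Slc4a1, Aqp1, Rhd, Kel, Ermap, Epb4.2, Ank1, Klf1, Tal1, Hemgn, Epor, Car1, Trim10 and Tmcc2. The 6 called genes that were also present in liver summed to 86.7, 85.7 and 93.3 CPM in liver, against 356, 256 and 288 CPM in spleen. The 7 genes not called summed to 418, 400 and 439 CPM in liver, against 494, 440 and 429 CPM in spleen, with log2 fold changes between -0.29 and 0.21. All 33 genes together made 514 ± 24.4 CPM in liver, against 974 ± 106 CPM in spleen (SD, n = 3 each), with no overlap. The exact two-sided permutation p of that sum was 0.1, the smallest that 3 libraries against 3 allow.

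**Figure D1:**
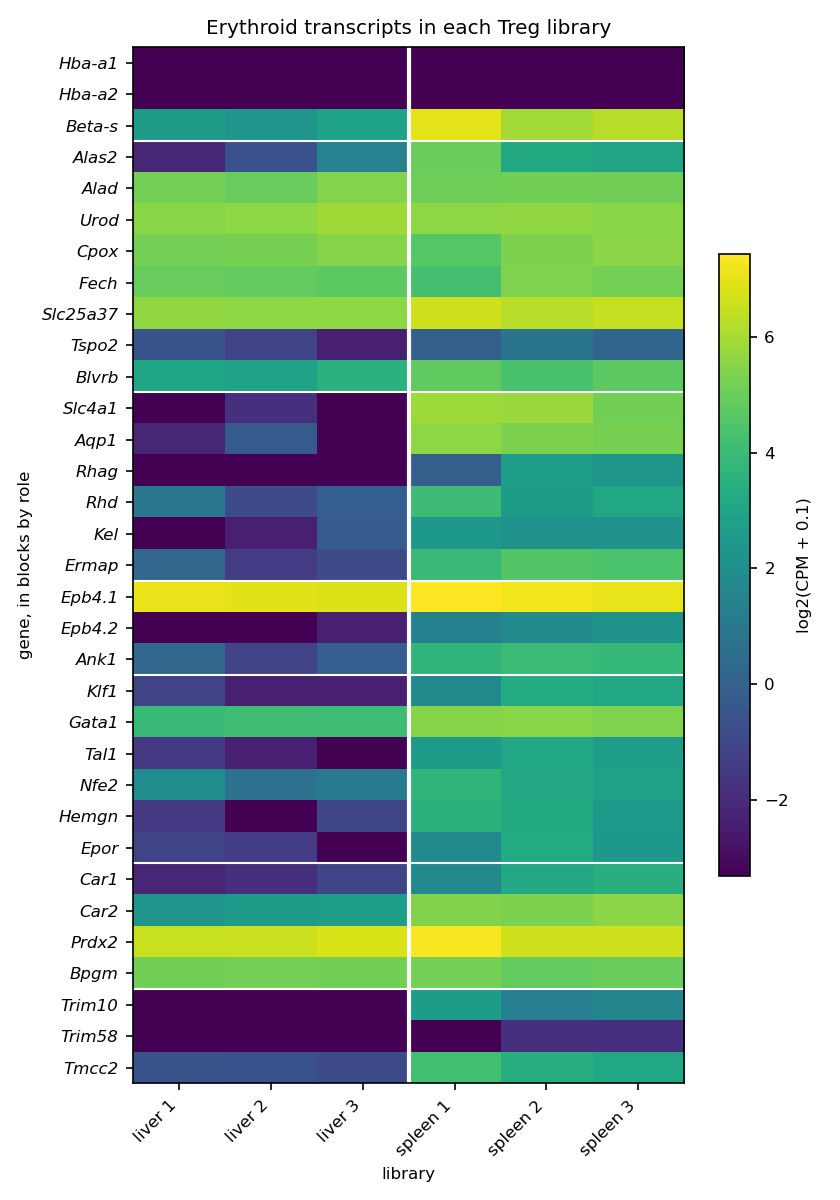
Level of each of the 33 erythroid genes as log2(CPM + 0.1), with genes as rows in blocks by role and the 3 liver and 3 spleen libraries as columns. Slc4a1, Rhag, Epb4.2 and Trim10 are dark in the liver columns and brighter in spleen, Epb4.1, Prdx2 and Urod are bright in all 6 libraries, and Hba-a1 and Hba-a2 are at 0 throughout.

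Among the globins, the adult beta chain gene Beta-s had 5.65, 4.76 and 7.49 CPM in liver, against 129, 61.9 and 77.7 CPM in spleen. The liver libraries all lay below the spleen libraries, and Beta-s was lower in liver (a log2 fold change of -3.81 ± 0.25 SE, edgeR adjusted p = 2.35e-08). The alpha chain genes Hba-a1 and Hba-a2 had 0 counts in each of the 6 libraries, as did the beta-like genes Hbb-b1, Hbb-b2, Hbb-bh1 and Hbb-y and the embryonic alpha-like gene Hba-x. The table thus held no measured alpha globin to set beside beta globin. Reads that aligned to more than 1 place went to a summary row and not to a gene, and this row took between 8.88% and 10.3% of all counts of a library. In the GENCODE M21 transcripts, Hba-a1 and Hba-a2 were identical at 537 of 538 aligned bases, and 67.5% of the 50-base windows of Hba-a1 occurred in Hba-a2. For Beta-s (Hbb-bs) and its neighbour Hbb-bt the identity was 93.12%, so the Beta-s counts are uncertain as well. The part of multiple alignment in the zeros was not tested. The alpha globin promoters show how alike these copies are: the 250 bases before the start of each gene, printed from RefSeq (GRCm38.p6) with capitals on the GATA and CACCC motifs described further on, hold the same motifs.
Hba-a1, chr11:32283422-32283671, plus strand: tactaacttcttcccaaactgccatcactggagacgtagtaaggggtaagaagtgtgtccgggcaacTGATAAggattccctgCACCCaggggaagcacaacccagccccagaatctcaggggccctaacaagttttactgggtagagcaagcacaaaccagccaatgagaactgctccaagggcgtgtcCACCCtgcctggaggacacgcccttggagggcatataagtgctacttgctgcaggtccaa
Hba-a2, chr11:32296242-32296491, plus strand: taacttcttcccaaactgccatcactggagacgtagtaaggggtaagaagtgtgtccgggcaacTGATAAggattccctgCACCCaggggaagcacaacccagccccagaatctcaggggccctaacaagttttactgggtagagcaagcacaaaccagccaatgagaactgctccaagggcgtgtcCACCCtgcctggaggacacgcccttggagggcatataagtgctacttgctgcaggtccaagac

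Heme synthesis split by gene. Alas2, the erythroid form of the first and rate-limiting enzyme, had 0.120, 0.550 and 2.59 CPM in liver, against 31.8, 9.07 and 7.60 CPM in spleen. It was lower in liver (a log2 fold change of -3.53 ± 0.67, edgeR adjusted p = 0.00117). The groups did not overlap, though liver 3 stood above the other liver libraries and spleen 1 above the other spleen libraries, and the log2 fold change was -5.14 without liver 3 and -2.86 without spleen 1. The spans of Alas2 and Apex2 overlap in GENCODE M21, as do those of Cpox, Slc25a37, Epb4.1, Ank1, Kel, Car1, Tmcc2 and Prdx2 with other genes. Overlap of exons was not examined. Reads ambiguous between genes went to a summary row, which took 1.42% to 1.59% of all counts of a library. The strand setting was not stated, and the effect of overlaps on these counts was not tested. Slc25a37, the mitoferrin that carries iron into mitochondria, had 49.8, 48.7 and 48.3 CPM in liver, against 99.7, 78.7 and 88.6 CPM in spleen (a log2 fold change of -0.83 ± 0.12, edgeR adjusted p = 9.59e-05). Blvrb, biliverdin reductase B, averaged 8.97 ± 2.43 CPM in liver, against 24.7 ± 4.07 CPM in spleen (a log2 fold change of -1.42 ± 0.24, edgeR adjusted p = 0.000349). Both were well above the floor in liver and still lower there.

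The enzymes that every cell uses to make heme did not pass the test. Alad, which makes porphobilinogen, averaged 36.9 ± 6.56 CPM in liver, against 34.4 ± 0.788 CPM in spleen. Urod, uroporphyrinogen decarboxylase, averaged 51.5 ± 7.27 CPM in liver, against 48.1 ± 1.82 CPM in spleen. Cpox, coproporphyrinogen oxidase, averaged 39.6 ± 4.69 CPM in liver, against 37.1 ± 11.8 CPM in spleen. The libraries of the tissues overlapped for each of these enzymes. Fech, ferrochelatase, which inserts the iron, had 30.1, 28.8 and 26.5 CPM in liver, against 18.9, 40.7 and 36.4 CPM in spleen (a log2 fold change of -0.29 ± 0.19, edgeR adjusted p = 0.346). Spleen 1 was below the liver libraries and the other spleen libraries above them, and without spleen 1 Fech was called lower in liver (a log2 fold change of -0.44, edgeR adjusted p = 0.0422). Tspo2, an erythroid relative of the mitochondrial translocator protein, was too low to be tested, at 10 counts over the liver libraries and 33 over the spleen libraries, a pooled level 4.04-fold lower in liver (exact 95% interval 1.94 to 9.19). Its liver libraries lay below its spleen libraries, and without the filter it did not pass (edgeR adjusted p = 0.217).

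Channels, transporters and blood group antigens of the membrane had the widest gap of the 7 roles in summed level, with 2.26 ± 0.660 CPM in liver, against 131 ± 17.2 CPM in spleen (SD, n = 3 each). Slc4a1, the band 3 anion exchanger, had 0, 2 and 0 counts in liver 1, liver 2 and liver 3, against 68, 661 and 418 counts in spleen, or 58.5, 56.6 and 35.7 CPM in spleen. Its pooled level was 702-fold lower in liver, with an exact 95% interval of 194 to 5802 that covers counting error only (edgeR adjusted p = 9.35e-10). Aqp1, the water channel, had 0.120, 0.733 and 0.00 CPM in liver, against 49.0, 40.0 and 37.4 CPM in spleen, a pooled level 131-fold lower in liver (exact 95% interval 68.6 to 287). In both genes the liver libraries were below 1 CPM, and all spleen libraries lay far above them. Ermap, the Scianna blood group protein, averaged 0.606 ± 0.422 CPM in liver, against 19.8 ± 3.95 CPM in spleen (a log2 fold change of -5.14 ± 0.38). Rhd, the Rh antigen protein, had 1.80, 0.458 and 0.833 CPM in liver, against 16.3, 5.99 and 8.71 CPM in spleen (a log2 fold change of -3.19 ± 0.53, edgeR adjusted p = 0.000324). Kel, the Kell antigen, averaged 0.277 ± 0.403 CPM in liver, against 4.71 ± 0.390 CPM in spleen (a log2 fold change of -3.91 ± 0.72). These 3 antigen genes were all lower in liver with no overlap, and like Slc4a1 and Aqp1 they passed the low-count filter only through spleen. Of the 9 Kel counts in liver, 8 were in liver 3, without which its log2 fold change was -6.13. Without liver 1 it was -5.76 for Ermap and -3.78 for Rhd. For Aqp1 the fitted log2 fold change was -7.04 with all libraries, -9.26 without liver 2 and -6.41 without liver 3, and for Slc4a1 -9.25 with all and -11.74 without liver 2, where liver is at 0 and the fit sets no bound. Rhag, the Rh-associated glycoprotein, had 0 counts in each liver library, against 1, 72 and 60 counts in spleen. It missed the low-count filter through spleen 1. Its pooled level was at least 54.2-fold lower in liver against a floor of 3 counts over the group. Without the filter its edgeR adjusted p was 1.53e-13. In that fit the edgeR adjusted p of Slc4a1 was 1.55e-111, so the value for Rhag cannot be set beside those of the filtered fit.

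Of the membrane skeleton genes, 2 on the list were lower in liver and 1 was not called. Epb4.2, protein 4.2, had 0, 0 and 1 counts in liver 1, liver 2 and liver 3, against 3, 40 and 53 in spleen, a pooled level 117-fold lower in liver (exact 95% interval 20.6 to 4688, edgeR adjusted p = 4.81e-05). Ank1, erythroid ankyrin, had 1.08, 0.366 and 0.833 CPM in liver, against 12.9, 15.8 and 14.3 CPM in spleen (a log2 fold change of -4.28 ± 0.38, edgeR adjusted p = 5.26e-07). Sptb, the beta-spectrin listed as Spnb1, had 2.64, 1.56 and 2.59 CPM in liver, against 40.4, 27.3 and 23.1 CPM in spleen (a log2 fold change of -3.66 ± 0.29, edgeR adjusted p = 1.29e-07). All 3 were lower in liver with no overlap, though Epb4.2 and Ank1 passed the low-count filter only through spleen. The fitted log2 fold change of Epb4.2 was -6.32 with all libraries and -8.04 without liver 3, where liver is at 0 and the fit sets no bound. Epb4.1, protein 4.1, which many cell types use, had 140, 125 and 116 CPM in liver, against 173, 145 and 133 CPM in spleen. Its libraries overlapped and it did not pass (a log2 fold change of -0.21 ± 0.11, edgeR adjusted p = 0.216).

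All 6 regulators of the lineage were lower in liver, by unequal amounts, against 6.9% of all genes tested. Klf1, the factor that activates adult beta globin, had 0.360, 0.0916 and 0.0925 CPM in liver, against 3.44, 9.76 and 8.54 CPM in spleen (a log2 fold change of -5.47 ± 0.61, edgeR adjusted p = 5.59e-06). Tal1, a blood stem cell and erythroid factor, had 3 counts over the liver libraries and 183 over the spleen libraries, a pooled level 74.6-fold lower in liver (exact 95% interval 25.1 to 365). Epor, the erythropoietin receptor, had 0.360, 0.275 and 0.00 CPM in liver, against 3.44, 9.33 and 5.21 CPM in spleen (a log2 fold change of -4.93 ± 0.67). Hemgn, the nuclear protein hemogen, averaged 0.203 ± 0.188 CPM in liver, against 8.89 ± 3.34 CPM in spleen (a log2 fold change of -5.27 ± 0.65). These 4 genes passed the low-count filter only through spleen, so that they had to differ, while Gata1 and Nfe2 passed in liver too. The 4 were under 1 CPM in each liver library, and their fitted values moved with single libraries. Without liver 1 the log2 fold change was -6.26 for Klf1 and -6.93 for Tal1, whose value with all libraries was -5.99. Without liver 3 it was -4.33 for Epor and -6.11 for Hemgn, and without liver 2 it was -4.66 for Hemgn. All of these calls held. Gata1, the master factor of the lineage, had 14.9, 17.5 and 17.2 CPM in liver, against 44.7, 46.1 and 40.8 CPM in spleen (a log2 fold change of -1.40 ± 0.16, edgeR adjusted p = 8.32e-06). Per kilobase of exon its liver level was 6.78 CPM, against 0.813 CPM for Nfe2 and 0.119 CPM for Klf1, and the other 3 were below Klf1. Nfe2, a subunit of the factor NF-E2, averaged 2.43 ± 1.06 CPM in liver, against 9.57 ± 3.02 CPM in spleen (a log2 fold change of -1.88 ± 0.40, edgeR adjusted p = 0.00296).

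Red cell enzymes and maturation genes showed the same division. Car1, carbonic anhydrase 1, had 0.120, 0.183 and 0.370 CPM in liver, against 3.44, 8.90 and 10.7 CPM in spleen (a log2 fold change of -5.13 ± 0.56, edgeR adjusted p = 4.71e-06). Car2, carbonic anhydrase 2, had 4.80, 5.95 and 6.38 CPM in liver, against 42.1, 40.1 and 47.1 CPM in spleen (a log2 fold change of -2.91 ± 0.19, edgeR adjusted p = 2.68e-08). Both carbonic anhydrases were lower in liver with no overlap, though Car1 passed the low-count filter only through spleen. Prdx2, the peroxide scavenger peroxiredoxin 2, had 93.4, 93.7 and 112 CPM in liver, against 160, 101 and 101 CPM in spleen (a log2 fold change of -0.20 ± 0.14, edgeR adjusted p = 0.415). Bpgm, bisphosphoglycerate mutase, averaged 35.8 ± 0.759 CPM in liver, against 31.8 ± 3.94 CPM in spleen (a log2 fold change of 0.21 ± 0.15, edgeR adjusted p = 0.394). Neither of these passed, and Prdx2 overlaps Junb and Rnaseh2a in GENCODE M21. Trim10, a ubiquitin ligase gene of terminal erythroid maturation, had 0 counts in each liver library and 7, 28 and 35 in spleen, a pooled level at least 28.6-fold lower in liver against 3 counts over the group (edgeR adjusted p = 0.000169). Tmcc2 had 0.601, 0.550 and 0.463 CPM in liver, against 18.1, 10.4 and 8.45 CPM in spleen (a log2 fold change of -4.35 ± 0.46, edgeR adjusted p = 3.33e-06). Trim10 and Tmcc2 were thus lower in liver with no overlap, and both passed the low-count filter only through spleen. Trim58, a ubiquitin ligase gene of enucleation, was barely detected, with 0 counts over the liver libraries and 4 over the spleen libraries.

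**Figure D2:**
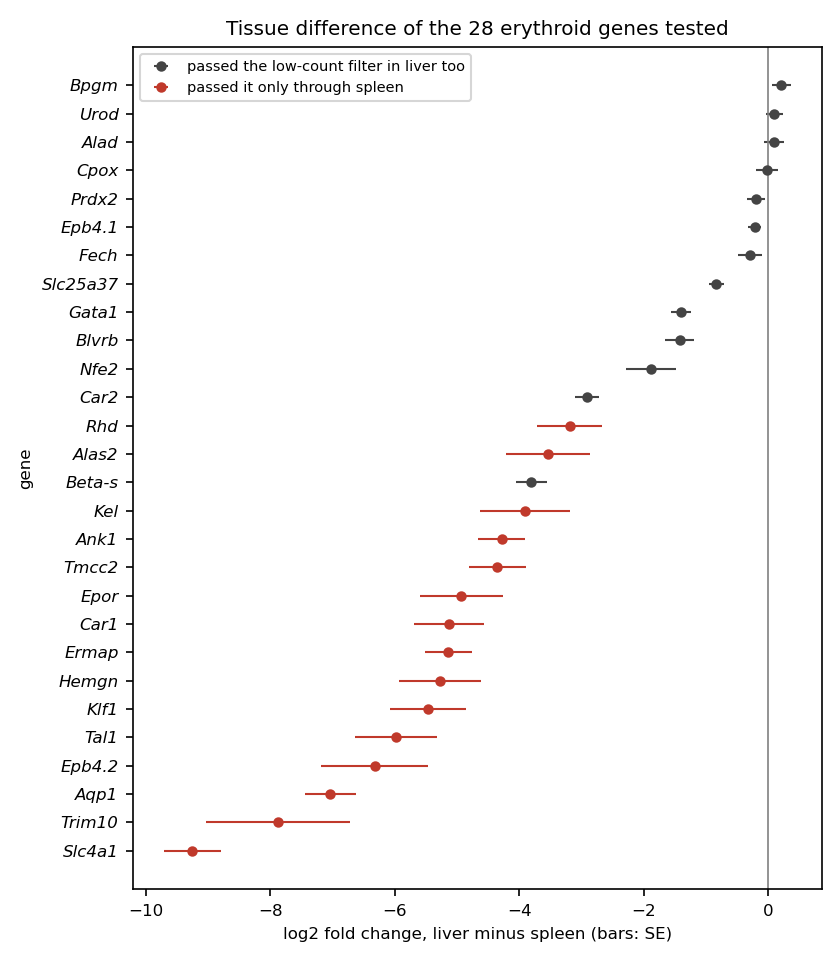
Log2 fold change, liver minus spleen, of the 28 genes tested, with bars for the SE, ordered from high to low. The 7 genes not called lie between -0.29 and 0.21, and those that passed the low-count filter only through spleen lie at -3.19 and below; fitted values of genes near 0 counts in liver, such as Trim10 and Slc4a1, depend on the fit's prior count.

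Per kilobase of exon, which allows levels of different genes to be compared, the order differed between the tissues. With exon lengths from GENCODE M21, Beta-s led in spleen at 117 CPM per kb, followed by Prdx2 at 39.5, Urod at 18.6, Alad at 18.4 and Gata1 at 18.0 CPM per kb. In liver Prdx2 led at 32.7 CPM per kb, followed by Urod at 19.9 and Alad at 19.7, with Beta-s at 7.77 CPM per kb. Slc4a1 was at 0.0125 CPM per kb in liver and 10.3 CPM per kb in spleen. These lengths come from a later annotation than the counts and serve only for this ordering.

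Levels also varied among the spleen libraries. Spleen 1, the shallowest library at 1199410 counts in genes, was set against spleen 2 and spleen 3 pooled for the 31 genes with any count in spleen. Its level was higher beyond the exact 95% counting interval for 6 genes and lower for 5, and the interval held 1 for 20. Alas2 was 3.82 times as high in spleen 1 (interval 2.61 to 5.45), Rhd 2.22 times (1.31 to 3.58), Tmcc2 1.92 times (1.17 to 3.01) and Beta-s 1.85 times (1.55 to 2.19). Prdx2 and Epb4.1 were the other 2 higher genes. Rhag was 0.152 times as high (0.00383 to 0.864), Car1 0.351 times (0.0949 to 0.912) and Klf1 0.376 times (0.102 to 0.977), and Fech and Cpox were also lower. Slc4a1 (0.977 to 1.62), Aqp1 (0.952 to 1.66) and Car2 (0.709 to 1.29) had intervals that held 1. These intervals cover counting error only and were not adjusted for the 31 genes. The share of all genes outside such an interval was not computed. Over all genes the counts of spleen 1 differed from those of spleen 2 and spleen 3 by more than counting noise too, with chi-square per degree of freedom of 5.38 and 4.71, so intervals that miss 1 describe these libraries and no test was made. Without spleen 1, all 21 called genes were still called lower in liver.

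**Figure D3:**
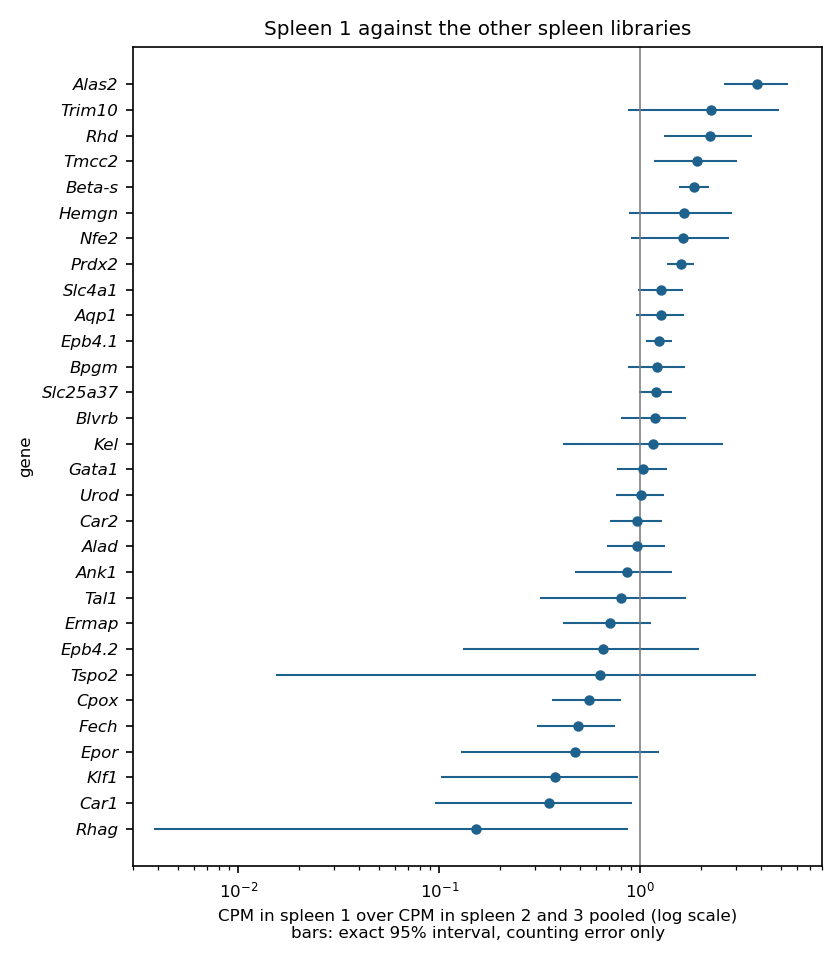
Level of each gene in spleen 1 over spleen 2 and spleen 3 pooled, on a log scale, with exact 95% intervals for counting error, for the 30 genes with a count in spleen 1. Alas2 stands highest at 3.82 and Rhag lowest at 0.152.

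The promoters of the listed genes, called or not, were searched for the letters that erythroid factors are known to bind. The RefSeq table (GRCm38.p6) held 33 windows for 26 of the 33 genes, of which 19 belonged to genes called lower in liver, 9 to genes not called and 5 to genes not tested, and the 250 bases before each start were searched on both strands for GATA motifs (AGATAA, and equally TGATAA, and AGATAG, and also TGATAG), for CACCC, which Klf1 binds, and for TGAGTCA, an NF-E2 core. A GATA motif was in 57.6% of the members' windows and in 26.5% of all 32851 windows, and CACCC in 69.7% and 52.0%. Both were present in 45.5% of the members' windows and 11.8% of all windows, and TGAGTCA in 6.06% and 4.46%. Of the 15 called genes with a window, 13 had a GATA motif in at least 1 window, and of the 6 genes not called with a window, 2 had one. The called genes without a GATA motif were Aqp1 and Gata1, and the genes not called that had one were Cpox and Epb4.1. The window of Cpox held 2 GATA and 4 CACCC matches. Windows of alternative starts of a gene are not independent, the list was drawn up with the biology of these genes known, and a match is a description of the letters, not of binding. The windows of Beta-s, Alas2, Klf1, Rhag and Epb4.2, all far lower in liver, and of Urod, which did not pass the test and whose window held neither motif, are printed to show where the GATA and CACCC motifs lie, in capitals on either strand.
Beta-s (Hbb-bs), chr7:103827929-103828178, minus strand: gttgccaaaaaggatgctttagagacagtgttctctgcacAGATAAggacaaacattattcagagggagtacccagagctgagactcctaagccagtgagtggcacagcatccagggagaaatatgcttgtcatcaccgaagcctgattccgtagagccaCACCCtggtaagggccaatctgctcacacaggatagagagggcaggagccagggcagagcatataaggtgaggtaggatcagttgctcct
Alas2, chrX:150547167-150547416, plus strand: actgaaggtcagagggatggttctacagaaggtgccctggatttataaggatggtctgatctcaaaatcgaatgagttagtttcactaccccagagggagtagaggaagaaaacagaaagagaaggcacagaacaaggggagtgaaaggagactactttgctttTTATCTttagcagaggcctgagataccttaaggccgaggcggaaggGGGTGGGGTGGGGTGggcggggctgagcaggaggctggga
Klf1, chr8:84901732-84901981, plus strand: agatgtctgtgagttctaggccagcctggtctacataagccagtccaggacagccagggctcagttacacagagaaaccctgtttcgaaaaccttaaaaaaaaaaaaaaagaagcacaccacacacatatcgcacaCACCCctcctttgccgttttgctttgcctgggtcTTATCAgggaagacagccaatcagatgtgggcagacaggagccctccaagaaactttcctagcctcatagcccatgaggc
Rhag, chr17:40810899-40811148, plus strand: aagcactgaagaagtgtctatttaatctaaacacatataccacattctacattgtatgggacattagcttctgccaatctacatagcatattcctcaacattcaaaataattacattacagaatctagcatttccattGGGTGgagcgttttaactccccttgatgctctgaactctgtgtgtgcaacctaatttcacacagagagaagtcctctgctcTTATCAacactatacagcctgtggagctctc
Epb4.2 (Epb42), chr2:121036878-121037127, minus strand: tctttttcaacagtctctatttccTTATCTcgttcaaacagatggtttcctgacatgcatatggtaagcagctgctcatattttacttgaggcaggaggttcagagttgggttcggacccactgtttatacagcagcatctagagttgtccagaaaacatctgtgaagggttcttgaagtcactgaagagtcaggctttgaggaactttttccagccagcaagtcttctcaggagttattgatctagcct
Urod, chr4:116994414-116994663, minus strand: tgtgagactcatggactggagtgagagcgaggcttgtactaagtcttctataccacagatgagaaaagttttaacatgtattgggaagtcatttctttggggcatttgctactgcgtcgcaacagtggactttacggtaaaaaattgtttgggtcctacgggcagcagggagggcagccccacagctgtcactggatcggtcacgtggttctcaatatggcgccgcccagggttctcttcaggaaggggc

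**Figure D4:**
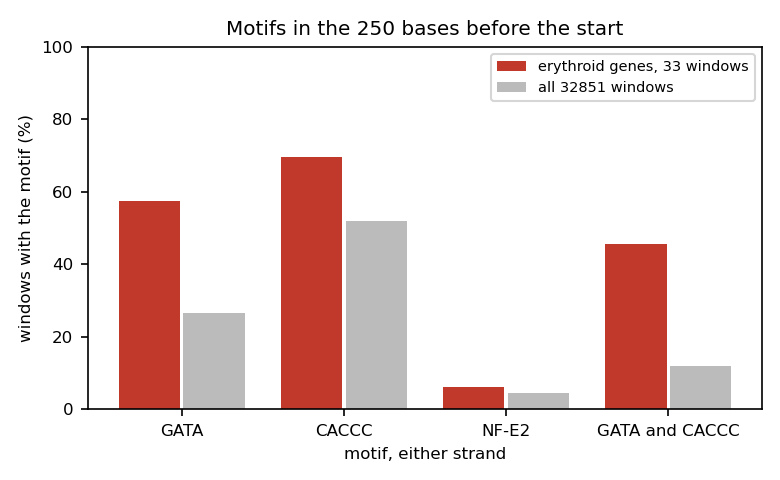
Share of promoter windows, in percent, with each motif on either strand in the 250 bases before the start, for the 33 windows of the erythroid genes and for all 32851 windows of the table. GATA motifs stand at 57.6% against 26.5%, CACCC at 69.7% against 52.0%, NF-E2 at 6.06% against 4.46%, and GATA with CACCC at 45.5% against 11.8%.

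Genes of the same pathways that are not on the list are given next, and they are not part of the counts above. Of those named, Add2, Epb4.9, Tfr2, Steap3, Gfi1b and Pklr passed the low-count filter only through spleen, so that they had to differ. The counts by list carry that choice. Of 18 other red cell membrane genes, 10 were lower in liver and 2 higher, 4 were tested and not called, and 2 were not tested. Add2, beta-adducin (-5.53 ± 0.71), and Epb4.9, dematin (-5.46 ± 0.81), were among the lower genes, with log2 fold changes and SE as given. Cd47 and Slc2a1, which T cells also use, were the 2 that were higher. Of 15 other heme and mitochondrial iron genes, 4 were lower in liver and 0 higher, and 11 were not called. Among the lower genes were Alas1, the housekeeping form of the first enzyme (-0.54 ± 0.17), the mitochondrial transporter gene Abcb10 (-0.97 ± 0.27) and heme oxygenase Hmox1 (-2.10 ± 0.32), all as log2 fold changes with SE. Of 10 iron uptake and storage genes, 3 were lower in liver and 0 higher, and 7 were not called. The 3 were the second transferrin receptor Tfr2 (-4.72 ± 0.74), the ferrireductase Steap3 (-2.84 ± 0.49) and ferroportin Slc40a1 (-3.40 ± 0.34). Ftl1, ferritin light chain, had a log2 fold change of -0.21 and was not called. The first transferrin receptor Tfrc, which dividing T cells use, averaged 99.1 CPM in liver, against 114 CPM in spleen, but did not pass.

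Of 13 other transcription regulators, 4 were lower in liver and 1 higher, 7 were not called and 1 was not tested. Gfi1b, a repressor of the erythroid and megakaryocyte lineages, had 3 counts over the liver libraries against 4.30, 4.88 and 4.87 CPM in spleen, and Lmo2, a partner of Tal1, was lower by less (a log2 fold change of -2.24 ± 0.35). Zfpm1, the Gata1 cofactor of the FOG family, was lower by still less (-0.37 ± 0.11). Klf3 was the gene that was higher in liver (0.51 ± 0.13). Of 18 other maturation genes, 3 were lower in liver and 2 higher, 12 were not called and 1 was not tested. Pklr, the red cell pyruvate kinase (-5.20 ± 0.69), and the surface antigen Cd24a (-0.74 ± 0.13) were among the lower genes, and Fam46c (0.49 ± 0.12) and Bcl2l1 were the 2 higher ones.

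Markers of other cells that a spleen or liver sort could hold are given by list. Of 13 red pulp and erythroblastic island macrophage markers, 8 were lower in liver and 0 higher, 1 was not called and 4 were not tested. The 8 lower ones passed the low-count filter only through spleen, so that they had to differ. All 13 markers summed to 27.6 to 40.1 CPM in liver, against 68.6 to 113 CPM in spleen. Of that sum Axl, which passed the filter in both tissues and was not called, averaged 31.7 CPM in liver and 31.9 CPM in spleen. Vcam1, the adhesion molecule of island macrophages, had 2 counts over the liver libraries against 12.9, 13.8 and 21.8 CPM in spleen, and Spic, the red pulp macrophage factor, had 0 counts in liver. Of 12 granulocyte markers 10 were lower in liver and Mmp9 was higher, with sums of 296 to 334 CPM in liver, against 508 to 851 CPM in spleen. Ngp (-1.26 ± 0.15) and Ltf (-1.02 ± 0.14) were the most abundant of these over all 6 libraries. Of 8 B cell markers 3 were lower and 5 did not pass, with sums of 132 to 160 CPM in liver, against 203 to 284 CPM in spleen, Cd79a being lower (-0.69 ± 0.16) and Cd79b not called. Basophil, mast cell and eosinophil markers summed to 2.84 to 5.16 CPM in liver, against 12.0 to 13.1 CPM in spleen, with Prg2 lower (-2.67 ± 0.58), Prss34 not called and the other 5 of these 7 not tested. Prg2 passed the filter only through spleen. Of 9 megakaryocyte and platelet markers Itga2b and Gp1ba were tested and 0 passed, with sums of 7.59 to 10.1 CPM in liver, against 13.3 to 21.5 CPM in spleen, and Treml1 at 0 in each library. Of 7 progenitor markers Myb was lower in liver (-0.64 ± 0.10) and 5 others, Kit (-0.60 ± 0.24) among them, were not called. Their sums were 88.4 to 96.9 CPM in liver and 137 to 146 CPM in spleen, of which Myb averaged 75.4 CPM and 118 CPM.

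Of 8 hepatocyte markers, 2 were higher in liver, 1 was lower, 1 was not called and 4 were not tested. The 2 higher ones, Alb and Ahsg, passed the low-count filter only through liver, so that they had to differ. Alb, albumin, had 6.01, 2.20 and 7.31 CPM in liver, against 0 counts in each spleen library, and Ahsg was higher in liver too, while Trf, transferrin, was lower. The summed level of these markers was 15.7 to 25.6 CPM in liver, against 18.2 to 24.9 CPM in spleen. Of that sum, Trf averaged 9.96 CPM in liver and 17.1 CPM in spleen. Treg and T cell markers were high in both tissues. Foxp3 had 1293, 1303 and 1197 CPM in liver, against 1217, 1157 and 1101 CPM in spleen. It did not pass (a log2 fold change of 0.13 ± 0.09). Cd4, Cd3e, Cd3d and Cd3g did not pass either. Ikzf2, which encodes Helios, and Ctla4 were higher in liver and Il2ra lower.

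Libraries held between 8437055 and 10951720 counts in genes in liver and between 1199410 and 11408960 in spleen, and a floor of 3 counts stood at 0.275 to 0.360 CPM in liver, 2.58 CPM in spleen 1 and 0.256 to 0.257 CPM in spleen 2 and spleen 3. A gene at 0 in the liver libraries is therefore bounded more tightly than one at 0 in spleen 1. The sex-linked transcripts Xist and Ddx3y differed between the libraries of a tissue in the same way in both tissues. Liver 1 and spleen 1 held Xist alone, liver 2 and spleen 2 Ddx3y alone, and liver 3 and spleen 3 both. The contents thus matched by library number, but the labels state no pairing and the main fit used none. Within each of these 3 matched contents, with 1 liver and 1 spleen library each and no test, the summed level of the 33 genes differed by -1.10, -0.91 and -0.75 on the log2 scale, liver minus spleen.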

How the data were processed

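RNA from CD4+GFP+ Treg cells of liver and spleen was sequenced, and the authors deposited raw read counts per gene symbol with 5 HTSeq summary rows, which entered neither library sizes nor tests (25.5% to 29.0% of all counts). HISAT2 2.1, HTSeq 0.11 and the build mm9 are named, per the submitters' processing notes; annotation and strand setting: not given in the sources used here. Libraries were numbered by accession order because the labels give no pairing.

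Counts were filtered with filterByExpr, scaled by TMM and tested with edgeR 4.0.16 in R 4.3.3 (quasi-likelihood F test, liver minus spleen, Benjamini-Hochberg over 11716 genes, threshold 0.05). CPM use TMM-scaled library sizes, and SE is the log2 fold change over the square root of F. Pooled ratios carry exact binomial 95% intervals, which cover counting error only, as does the floor of 3 counts. The members and lists were chosen with earlier results of these data known; all members found, up to 4 genes of smallest p per pathway list and the 2 most abundant per marker list are named, except a few not reported here, and other genes were named after their values were seen. On simulated counts of 11620 genes, the test found 32 of 66 true changes of 1.5-fold, 58 of 64 of 2-fold and all 68 of 4-fold, and 8 of its 166 calls were false. The simulation gave every gene the same spread between libraries and changed few genes, by no more than 4-fold. It therefore checks the code and does not give the error rates on these data. Counts of any pair of libraries differed beyond counting noise (chi-square over its degrees of freedom at least 4.71). Promoters and exon lengths came from RefSeq GRCm38.p6 and GENCODE M21, and no coordinates of the counts are given.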

Additional observations from a re-analysis of the deposited data

How the results depend on the processing

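No call of an erythroid gene among the 28 tested was lost or reversed under any alternative in which the gene was tested, and Fech without spleen 1 was the only call gained. The alternatives were DESeq2 size factors, upper-quartile scaling, the DESeq2 1.42.0 Wald test, no filter, a minimum of 5 CPM in 3 libraries, markers left out of scaling, a block on the sex-linked transcripts, thinning to the depth of spleen 1, and leaving out each library. Thinning left 18 of the genes tested and 11 called lower in liver, with a median log2 fold change of -1.60, and called 1024 genes in all, 620 higher and 404 lower in liver. The 5 CPM filter left 22 genes tested and 15 called, with a median of -2.39. These smaller counts follow from fewer genes passing the filter or from less depth. With a library left out, the calls over all genes ranged from 1208 (without spleen 2) to 2234 (without spleen 1), with 722 to 1245 higher and 486 to 989 lower in liver, against 1895, 1087 and 808 with all libraries, and 21 to 23 erythroid genes were lower and 0 higher. Depth limits the low genes of spleen 1, such as Rhag at 1 count.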
